A study of Mus musculus with 8 samples.

Results

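Interferon-stimulated genes were followed in muscle stem cells, the satellite cells that rebuild muscle fibres, after mice received ketone bodies. The set was chosen by gene symbol and held 53 genes of the 25237 in the table of normalized reads, and 51 of them had a mean of at least 10 normalized counts over the 8 libraries and were tested. No tested member owed its place to the ketone group alone, since 0 of them had a mean below 10 in the PBS group. The cells came from hindlimb muscle of male mice aged 2 to 4 months and were purified by their surface proteins, keeping VCAM1+ cells and discarding any with CD31, CD45 or Sca1. The control group had 4 libraries from mice given phosphate-buffered saline (PBS), and the other group had 4 libraries from mice given ketones, the small acids that the liver makes from fat in fasting. The sources used here give neither dose nor duration. Each library held 19174005 to 36870537 reads. All PBS libraries carried the strain entry C57BL/6, whereas the entries of the ketone libraries were C57BL/7 (library 1), C57BL/8 (library 2) and C57BL/9 (libraries 3 and 4), and if these are true strains they cannot be told apart from treatment. The labels do not tie libraries to separate animals, and p-values therefore describe library-to-library spread only, part of which could be technical.

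Type I interferons bind a receptor made of IFNAR1 and IFNAR2. The kinases JAK1 and TYK2 then phosphorylate STAT2, which acts with IRF9 in a complex that binds the interferon-stimulated response element of target promoters. Interferon gamma acts through its own receptor and through gamma-activated sites in promoters, and its targets include IRF1 and the interferon-inducible GTPases. The products block viral entry, translation and replication, mark proteins with ISG15, or feed back on the pathway. Many of these genes are transcribed at a low level in tissues without infection, stem cells and endothelial cells included.

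Promoter sequence is shown because the response element core, which the choice by symbol did not use, stood in 22 of the 42 members with a promoter sequence. These 42 of the 53 members matched the RefSeq promoter table (GRCm38.p6, from 250 bases before to 50 bases after the start of transcription), some with more than 1 start. The core of the interferon-stimulated response element was searched as 2 copies of GAAA with any 2 bases between them, which on the other strand reads as 2 copies of TTTC, and the gamma-activated site as TTCNNNGAA, which reads the same on both strands. The response element core stood in 23 of 49 member promoters (46.9%) against 3.44% of all 32851 promoters in the table. The gamma-activated site stood in 14 of the 49 (28.6%) against 8.3% of all promoters. In 2 member promoters a match of one motif overlapped a match of the other. Both forms of the core are printed here in 60-base windows, or shorter at the end of a promoter, with the match nearest the start of transcription in capitals, read 5′ to 3′ along the gene's strand. The genes were picked after their values were seen, so that the first 7 rose in the ketone libraries and the last 3 did not pass the test.
Ifit1, chr19:34640779-34640838, plus strand: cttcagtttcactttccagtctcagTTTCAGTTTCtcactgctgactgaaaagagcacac
Ifit3, chr19:34583382-34583441, plus strand: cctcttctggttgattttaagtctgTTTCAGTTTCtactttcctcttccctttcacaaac
Ifit3b, chr19:34607778-34607837, plus strand: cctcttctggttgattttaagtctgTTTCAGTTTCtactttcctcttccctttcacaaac
Rsad2, chr12:26456538-26456597, minus strand: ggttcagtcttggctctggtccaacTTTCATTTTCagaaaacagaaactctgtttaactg
Isg15, chr4:156200850-156200909, minus strand: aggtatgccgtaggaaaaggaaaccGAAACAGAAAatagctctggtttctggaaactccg
Oas1a, chr5:120907505-120907564, minus strand: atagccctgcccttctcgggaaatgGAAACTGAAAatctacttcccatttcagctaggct
Irgm1, chr11:48871410-48871469, minus strand: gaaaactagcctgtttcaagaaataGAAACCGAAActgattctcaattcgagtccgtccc
Ifih1, chr2:62646206-62646248, minus strand: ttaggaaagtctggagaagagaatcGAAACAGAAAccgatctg
Ddx58, chr4:40239789-40239848, minus strand: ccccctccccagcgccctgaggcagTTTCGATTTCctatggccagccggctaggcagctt
Gbp2, chr3:142620579-142620638, plus strand: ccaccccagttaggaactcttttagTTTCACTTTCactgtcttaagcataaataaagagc
The windows of Ifit3 and Ifit3b had 0 mismatches over 60 bases. The promoter of Isg15 held 3 matches of the core and those of Ifit1, Ifit3, Ifit3b, Oas1a and Irgm1 held 2 each. Of 21 tested members with the core 15 rose, with a median log2 change of 1.17, and of 20 without it 14 rose, with a median of 0.86. For the gamma-activated site 9 of 14 members with it and 20 of 27 without it rose, with medians of 0.94 and 1.29. A match describes letters in this window only.

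Most interferon-stimulated genes were higher in the ketone libraries. Of the 51 tested members 35 rose and 0 fell at an adjusted p below 0.05 in a limma fit over all genes. Of the 35 that rose 26 were at least 2-fold higher. Over all genes 1154 of the 1800 that rose were at least 2-fold higher, which is 8.23% of the 14022 genes tested. At an unadjusted p below 0.05 limma put 38 members higher and 0 lower, and that count was not made over all genes. After adjustment edgeR and DESeq2 on the recovered reads put 36 and 38 members higher and 0 lower. Over all 14022 genes edgeR put 1918 higher and 1679 lower, and DESeq2 put 2256 higher and 1923 lower. In the adjusted limma fit the share of members that rose was 68.6%, against a background of 12.8% of the 14022 genes tested that rose and 12.8% that fell. The median log2 change of the members was 1.03, against -0.01 over all genes tested. In 31 members every ketone library lay above every PBS library (60.8% of those tested, background 14.2%), and in 0 members the reverse held (background 14.1%). Mx1 and Oas3 were too low to test. The plot of changes by role shows the signalling factors, the IFIT family, the membrane factors and the PARP and nuclear group with all tested members past the threshold, and the receptors and RNA sensors with none past it.

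**Figure D1:**
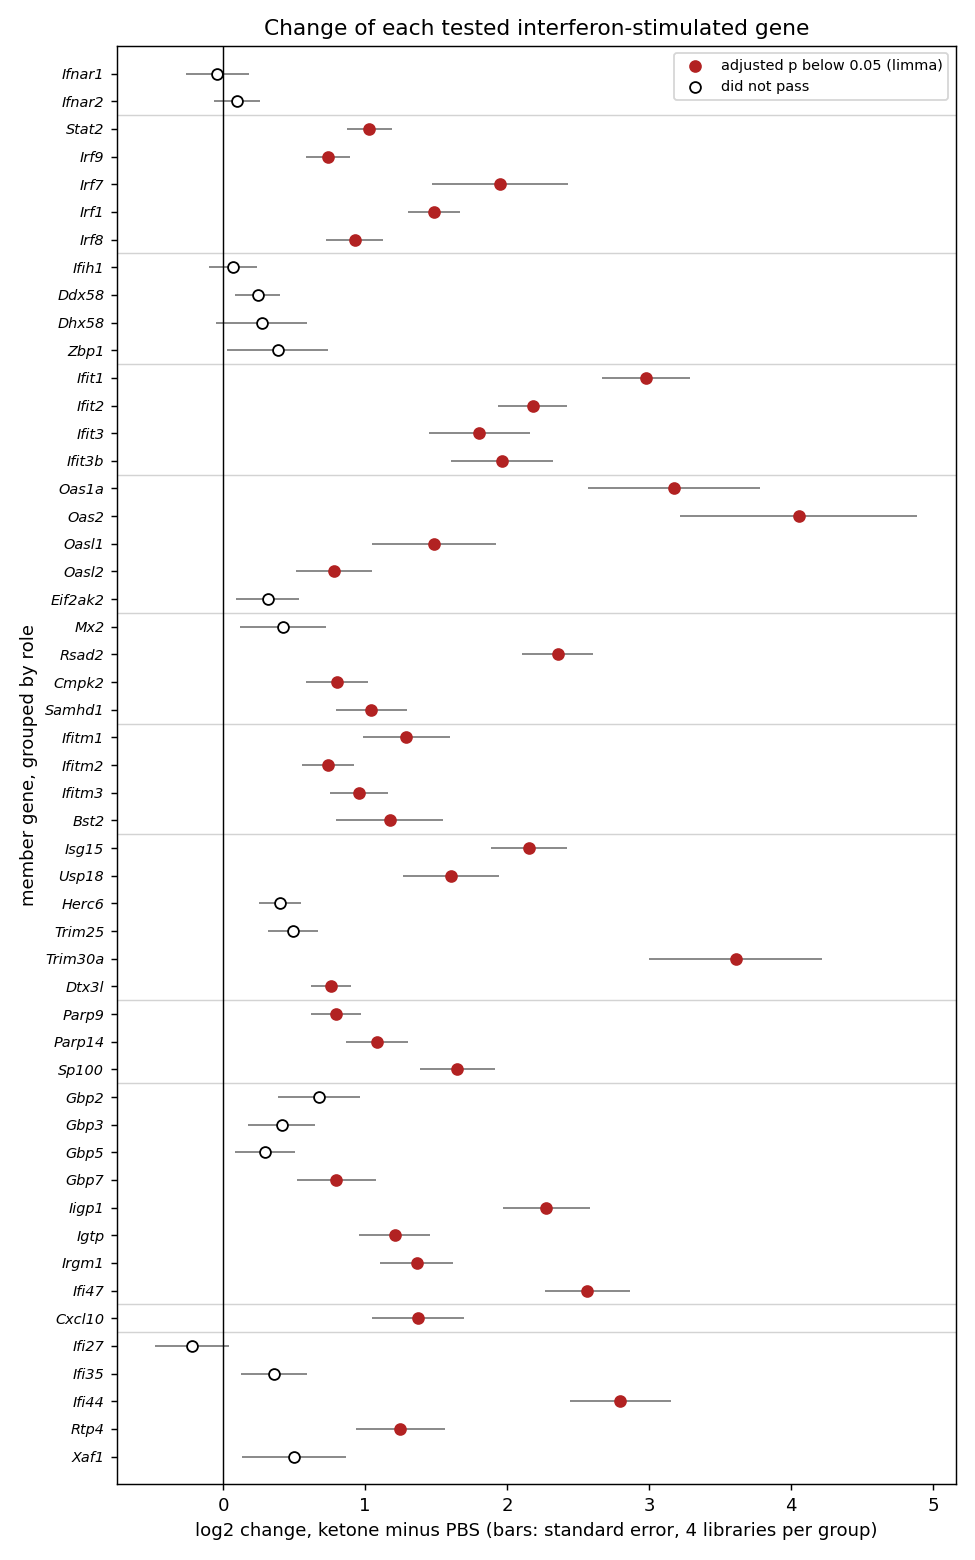
Log2 change of each tested member, ketone minus PBS, with its standard error (limma, 4 libraries per group), grouped by role. Filled points passed at an adjusted p below 0.05 (35 members) and open points did not (16 members), and 2 of the 51 points, Ifnar1 and Ifi27, lie below 0.

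Markers of other cell types also differed between the groups, and endothelial markers rose throughout. All 18 endothelial markers tested rose, with a median log2 change of 2.59, and none was at 0. Their summed level was 10478 to 13071 normalized counts in PBS and 38211 to 92057 in ketone. Pecam1, which encodes the sort marker CD31, was at 680.0, 649, 907 and 694 normalized counts in PBS libraries 1 to 4 and at 4259.5, 5606, 2130.4 and 4935 in ketone libraries 1 to 4. Cdh5, which encodes the endothelial cadherin, went from 241 ± 26.8 to 1514 ± 586 (mean ± SD, n = 4 per group throughout). Ly6a, which encodes the sort marker Sca1 and is itself raised by interferon, went from 535 ± 29.7 to 4907 ± 1742. Of 15 blood and immune markers tested 5 rose and 0 fell, and their summed level was 896.8 to 1173 in PBS and 1218 to 9596 in ketone. Ptprc, which encodes CD45, was near 0 in PBS at 16.1 to 28.4, stood at 299 in ketone library 1 and at 21.1 to 30.1 in the others, and did not pass (adjusted p = 0.217). Of 10 muscle stem cell markers 5 fell and 0 rose. Those that fell were Cdh15, Itga7, Calcr, Myod1 and Vcam1, with log2 changes of -1.72 for Cdh15 and -1.56 for Itga7. Vcam1, which encodes the sort marker VCAM1, went from 42043 ± 3281 to 24879.5 ± 10765 (adjusted p = 0.0206), with ketone library 4 within the PBS range. Pax7, the transcription factor that defines these cells, was at 2125 ± 301 in PBS and 1792 ± 215 in ketone (adjusted p = 0.265). The summed level of these 10 markers was 384603 to 424901 in PBS and 300187 to 433004 in ketone. Sdc4 and Chodl made up much of the PBS sum, at 153223 ± 8128 and 91252 ± 7024, and neither passed. The mean log2 level of this list was lower in every ketone library, at 13.52 to 14.03 against 14.35 to 14.47 in PBS. Among 10 smooth muscle and pericyte markers 6 rose and 2 fell. Their summed level was 36612 to 39889 in PBS and lower for most ketone libraries, at 24725 to 37163. Notch3 made up much of the PBS sum and fell from 24045 ± 1284 to 7596 ± 1414. The mean log2 level of this list was higher in every ketone library, at 10.61 to 11.30 against 10.13 to 10.43 in PBS. Among 10 fibro-adipogenic markers 5 rose and 2 fell. Their summed level was lower in every ketone library, at 39096 to 57457 against 59736 to 80680 in PBS. Col3a1 made up much of the PBS sum and fell from 45498 ± 8238 to 4702 ± 3098. The mean log2 level of this list was instead higher in every ketone library, at 10.19 to 10.65 against 9.55 to 10.05 in PBS. Among 8 Schwann cell markers 5 rose and 0 fell, with sums of 14844 to 15807 in PBS and 17043 to 22348 in ketone. Among 10 myofiber markers 7 rose and 1 fell, with sums of 6486 to 9598 in PBS and 4133 to 25690 in ketone. With the mean log2 level of the endothelial markers as a covariate in limma, 0 members passed in either direction, 0 were higher and 11 lower at an unadjusted p below 0.05, and the median log2 change was -0.50. That mean was 8.34 to 8.80 in PBS and 10.15 to 11.49 in ketone, so it follows the groups and cannot be told apart from treatment in this fit. The part of other cells in the results was not tested, and in bulk libraries fewer cells of a type and less RNA per cell cannot be told apart.

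**Figure D2:**
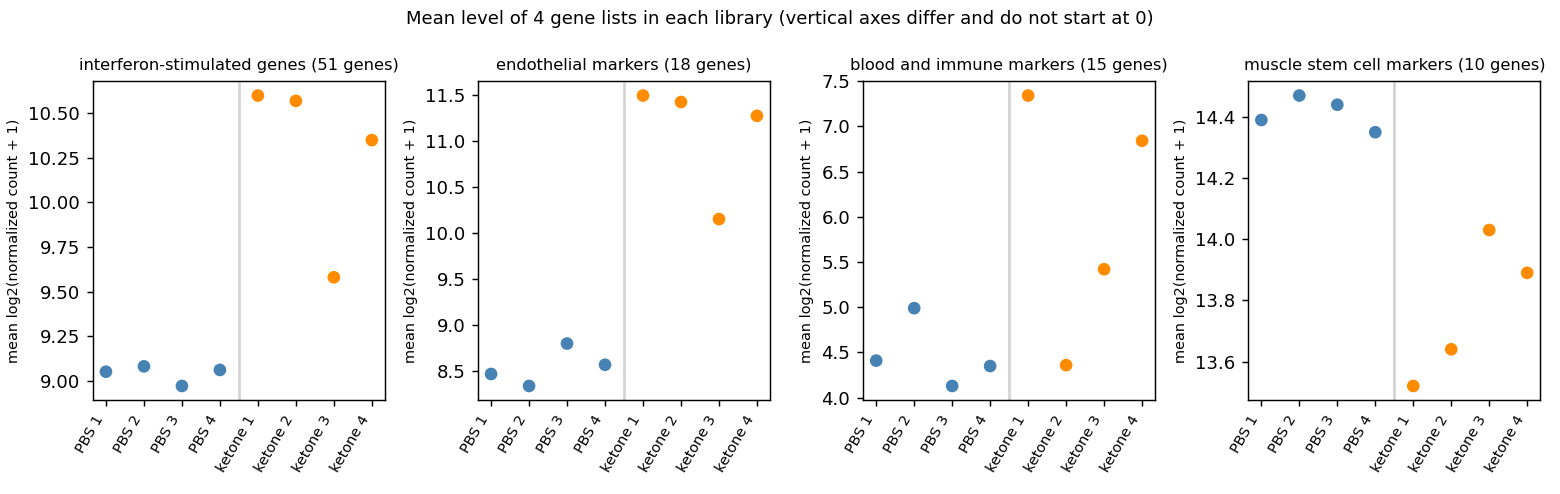
Mean log2(normalized count + 1) of the tested members, endothelial markers, blood and immune markers and muscle stem cell markers in each library, with PBS libraries in blue and ketone libraries in orange. Members and endothelial markers are lowest among the ketone libraries in ketone library 3, at 9.58 and 10.15, and the ketone libraries lie below every PBS library in the stem cell panel.

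Neither receptor gene passed the test. Ifnar1 (chromosome 16, 91485238 to 91507441) was at 3037, 3023, 3125 and 2949.8 normalized counts in PBS libraries 1 to 4 and at 2031, 2214, 3839.7 and 4368 in ketone libraries 1 to 4. Ketone libraries 1 and 2 lay below every PBS library and ketone libraries 3 and 4 above, so that the log2 change was -0.04 ± 0.22 (SE, adjusted p = 0.911). Ifnar2 (chromosome 16, 91372783 to 91405589), the chain that binds interferon most tightly, was at 3537, 3421, 4425 and 3894 in PBS and at 3403, 4238, 3597 and 5248 in ketone. Its groups overlapped, with a log2 change of 0.10 ± 0.16 (adjusted p = 0.701). Without ketone libraries 1 and 2 Ifnar1 passed as higher, with a log2 change of 0.43 (adjusted p = 0.00853).

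All 5 signalling and transcription factor genes rose, by 0.74 to 1.95 on the log2 scale, and in all 5 the groups did not overlap. Irf1 (chromosome 11, 53770014 to 53778374), an early target of interferon gamma that also drives GTPase and antigen presentation genes, was at 2976, 2668, 2956 and 3778 normalized counts in PBS. It was at 9703, 7497, 6556 and 11347 in the ketone libraries, each above the highest PBS library, with a log2 change of 1.48 ± 0.18 (adjusted p = 7.23e-05). Stat2 (chromosome 10, 128270559 to 128292849), a part of the type I complex, was at 802, 781, 804 and 785 in PBS and at 1789.7, 1947, 1331 and 1488 in ketone. The PBS libraries differed little among themselves, with an SD of 11.7, and Stat2 rose by 1.03 ± 0.16 on the log2 scale (adjusted p = 0.000339). Irf9, the DNA-binding part of the same complex, rose from 2391 ± 72 to 4050.5 ± 714. Irf8, known for its role in myeloid and B cells, rose from 4319.6 ± 507 to 8456 ± 2506. Irf7 (chromosome 7, 141262706 to 141266481), which amplifies the production of type I interferon, was at 610.1, 579.7, 596 and 675 in PBS and at 8034, 2752, 788 and 1836 in ketone. Ketone library 1 held the largest Irf7 value and ketone library 3 was close to PBS, and the log2 change was 1.95 ± 0.48 (adjusted p = 0.00891). Without ketone libraries 1 and 2 the log2 change of Irf7 was 0.97. The summed blood and immune markers (9596) and the summed myofiber markers (25690) were also highest in ketone library 1. The part of either in this Irf7 value was not tested.

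None of the 4 genes among the members for sensors of foreign nucleic acid passed the test, with log2 changes of 0.07 to 0.38. Ddx58, which encodes the RNA sensor RIG-I (chromosome 4, 40203773 to 40239828), was at 899.5, 929, 1114 and 1178 normalized counts in PBS and at 1433, 1064, 1137 and 1248 in ketone. The ranges overlapped (log2 change 0.24 ± 0.16, adjusted p = 0.282). Ifih1, which encodes the long RNA sensor MDA5, was at 927 ± 57.9 in PBS and 987 ± 187 in ketone (adjusted p = 0.79). Zbp1, a sensor of Z-form nucleic acid that can trigger cell death, was at 245, 224, 261 and 204 in PBS and at 619, 433, 197 and 160.4 in ketone. Ketone libraries 1 and 2 lay above and ketone libraries 3 and 4 below all PBS libraries for Zbp1 (adjusted p = 0.457). With the first 2 ketone libraries left out the log2 change of Zbp1 was -0.38. Dhx58, which encodes the regulator LGP2, was lower in abundance, at 88.3 ± 23.8 and 109.5 ± 42.6. Sensor genes outside the members were mixed, and those named here were picked after their values were seen. The DNA sensor genes Cgas, Ifi204 and Aim2 rose by 1.05, 3.04 and 3.97 on the log2 scale, Aim2 from near 0 in PBS. Sting1, an adaptor gene of DNA sensing, rose by 1.06 (adjusted p = 0.000323). The RNA sensor gene Tlr3 did not pass (log2 change 0.35, adjusted p = 0.294).

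The IFIT family, whose products bind viral RNA and hold back its translation, rose as a whole. All 4 genes lie in a cluster on chromosome 19 and had no overlap between groups. Ifit1 (34640871 to 34650009) was at 497, 638, 646 and 587 normalized counts in PBS and at 5527, 7123, 1964 and 5992 in ketone. The lowest ketone library, number 3, was still about 3 times the highest PBS library, and the log2 change was 2.98 ± 0.31 (adjusted p = 1.94e-05). Ifit2 (34550694 to 34576419) was at 379.9, 511, 342 and 439.7 in PBS and at 1801, 2635, 1109 and 2351 in ketone (log2 change 2.18 ± 0.24, adjusted p = 3.23e-05). Ifit3 and Ifit3b rose by 1.80 and 1.97 on the log2 scale. These 2 genes share much of their sequence, since 51.2% of the distinct 50-base stretches of Ifit3 transcripts also occur in Ifit3b. Reads from the shared stretches could be split between them in a way the sources do not give.

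Among the genes of double-stranded RNA defence 4 of 5 tested rose. The OAS enzymes make a short nucleotide messenger that activates RNase L. Oas1a (chromosome 5, 120896256 to 120907521) was at 20.6, 10.5, 3.08 and 6.96 normalized counts in PBS and at 152, 145, 50.8 and 45.1 in ketone. Oas2 (chromosome 5, 120730333 to 120749853) was at 20.6, 18.9, 0 and 5.57 in PBS and at 181, 206, 55.8 and 99.3 in ketone. Both genes were low in PBS and their groups did not overlap, and Oas1a rose by 3.17 ± 0.61 (adjusted p = 0.00185) and Oas2 by 4.05 ± 0.84 (adjusted p = 0.00315) on the log2 scale. Oas1a shares 57.6% of its 50-base stretches with Oas1g, so its value is uncertain. Oasl1 rose by 1.49 and Oasl2 by 0.78 on the log2 scale, but ketone library 3 lay within the PBS range for Oasl1 (58.7 against 52.9 to 74.6) and for Oasl2 (663 against 644 to 774). The call of Oasl1 (adjusted p = 0.0236) was lost when any 1 library other than PBS library 2 and ketone library 3 was left out, at adjusted p of 0.0511 to 0.0666. Oasl2 (adjusted p = 0.0468) lost its call without any 1 library other than ketone library 3, at adjusted p of 0.0815 to 0.122. Eif2ak2, which encodes the kinase PKR, did not pass (239 ± 35.3 against 301 ± 72.8, adjusted p = 0.323). Oas3 was at 0 in 3 of the PBS libraries and at most 18.5 in any library.

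Of the genes for MX proteins and nucleotide effectors 3 of 4 tested rose. Rsad2 (chromosome 12, 26442746 to 26456452) encodes viperin, which makes a chain-terminating nucleotide, and it stood at 229, 198, 159 and 154 normalized counts in PBS and at 885, 1308, 585 and 1152 in ketone. The groups did not overlap (log2 change 2.36 ± 0.25, adjusted p = 2.03e-05). Its neighbour Cmpk2, which supplies nucleotides for the same reaction, rose less, from 283 ± 64.6 to 493 ± 102 (log2 change 0.80, adjusted p = 0.0154, and 0.0585 without PBS library 4). Samhd1, which encodes a hydrolase that lowers the pool of DNA building blocks, was at 328, 197, 269.8 and 342 in PBS and at 659, 826, 393 and 508 in ketone (log2 change 1.04 ± 0.25, adjusted p = 0.00791). Mx2 missed the threshold, at 122 ± 12.5 in PBS against 177 ± 88.7 in ketone (adjusted p = 0.328). Mx1, a GTPase against influenza virus, was at 3.58 to 8.35 in PBS and at 18.5, 0, 2.99 and 0 in ketone, too low for a test.

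All 4 genes for membrane restriction factors rose, and none overlapped between groups. The IFITM proteins change membranes so that enveloped viruses fuse less well. Ifitm3 (chromosome 7, 141009586 to 141010770) was at 12678, 15749, 14832 and 14913 normalized counts in PBS and at 24879, 40323, 19402 and 32099 in ketone. Every ketone library exceeded the highest PBS library (log2 change 0.96 ± 0.21, adjusted p = 0.00433). Ifitm1 was far lower, at 58.2, 79.8, 54.4 and 59.8 in PBS and at 158, 149, 100.5 and 238 in ketone, and rose by 1.29 ± 0.30 (adjusted p = 0.00719). Ifitm2 rose from 5094 ± 519.7 to 8659.5 ± 2026, with 48.5% of its 50-base stretches shared with other genes. Bst2, which encodes tetherin, was at 340.3 to 445 in PBS and at 2414, 801, 461 and 644 in ketone. Bst2 was highest in ketone library 1, as Irf7 was, and its call (adjusted p = 0.0343) was lost without any 1 PBS library or without ketone library 2, at adjusted p of 0.0515 to 0.0923. Without ketone library 1 the log2 change of Bst2 went from 1.17 to 0.68.

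Of the 6 genes for ISG15 and ubiquitin enzymes 4 rose. Isg15 (chromosome 4, 156199424 to 156200818) encodes a ubiquitin-like tag, and it was at 319, 445, 404 and 397 normalized counts in PBS and at 2669.5, 2274, 953 and 1546 in ketone. All ketone libraries were more than 2-fold above the highest PBS library (log2 change 2.15 ± 0.27, adjusted p = 7.16e-05). Usp18, the protease that removes this tag and damps receptor signalling, rose from 115 ± 25.2 to 378 ± 169. Herc6, the ligase that attaches ISG15 in mice, missed the threshold at 906 ± 115 in PBS against 1192 ± 71 in ketone (adjusted p = 0.0628, and 0.0371 with DESeq2), although its groups did not overlap. Trim25, a ubiquitin ligase that activates RIG-I, was at 1249.8, 1499, 1296 and 1241 in PBS and at 1730.3, 2356, 1363 and 2118 in ketone. Only ketone library 3 lay within its PBS range (adjusted p = 0.0561, and 0.0443 with edgeR and 0.0251 with DESeq2). Trim30a, which restrains inflammatory signalling in mice, was at 31.4, 46.2, 5.13 and 79.3 in PBS and at 429, 503, 206 and 372 in ketone. It had one of the larger changes of the set, 3.61 ± 0.61 (adjusted p = 0.000769). Dtx3l rose by 0.76 and its binding partner Parp9, an ADP-ribosyltransferase family member, by 0.80 on the log2 scale. They lie on chromosome 16 with overlapping ends (Dtx3l from 35926511 to 35939151, Parp9 from 35938470 to 35972605), and without a stated strand setting reads in the overlap cannot be told apart. Parp14 was at 758, 808, 717 and 840.4 in PBS and at 1459, 2736, 1177 and 1586 in ketone (log2 change 1.08 ± 0.22, adjusted p = 0.00268). Sp100 (chromosome 1, 85649988 to 85709998), a component of nuclear bodies, was at 117, 107, 117 and 140.5 in PBS and at 586, 440.1, 243 and 326 in ketone. Both were above PBS in every ketone library, and Sp100 rose by 1.65 ± 0.27 (adjusted p = 0.000557).

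**Figure D3:**
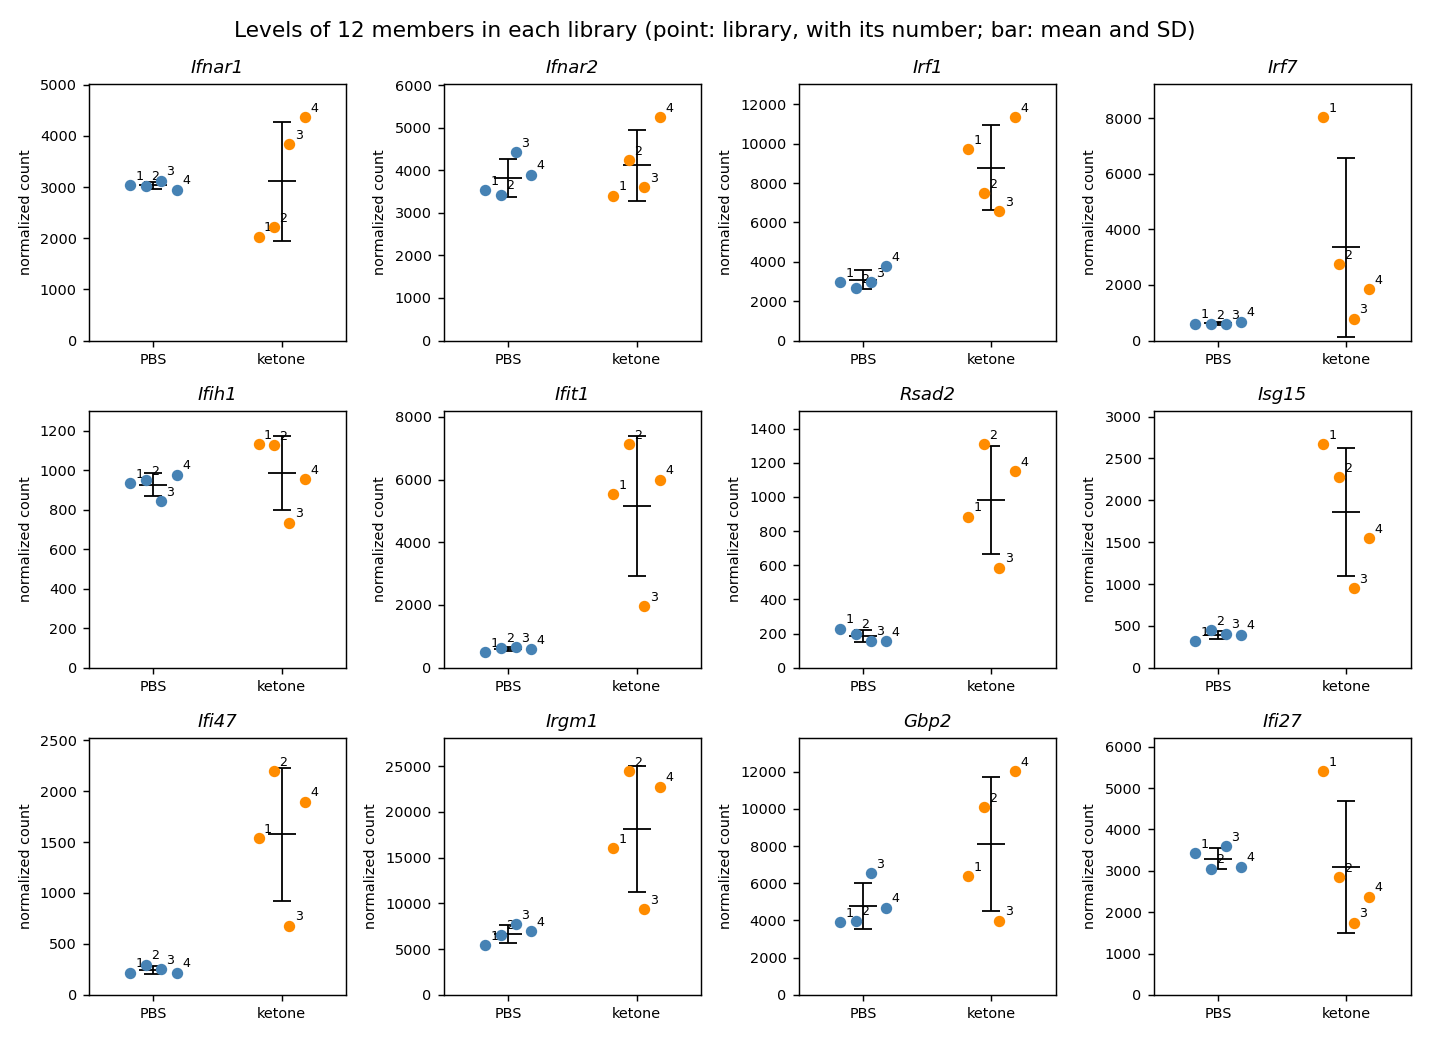
Normalized counts of 12 members in each library, with the library number beside each point and the mean ± SD of each group (n = 4) as a bar. Ketone library 3 is the lowest ketone library in 10 of the panels, the exceptions being Ifnar1 and Ifnar2, and in Gbp2 it lies inside the PBS range.

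The interferon-inducible GTPases attack the vacuoles of intracellular microbes, and 5 of 8 of their genes among the members rose. The 4 immunity-related GTPase genes among the members all rose with no overlap. Ifi47 (chromosome 11, 49076587 to 49096974) was at 216, 295, 253 and 216 normalized counts in PBS and at 1537, 2193, 677 and 1895 in ketone (log2 change 2.56 ± 0.30, adjusted p = 4.21e-05). Iigp1 (chromosome 18, 60376027 to 60392634) was at 862, 1309.5, 1457 and 1028 in PBS and at 4588, 9319, 2833 and 7734 in ketone (log2 change 2.28 ± 0.31, adjusted p = 0.000133). Irgm1, a regulator of the other GTPases, rose from 6656 ± 962 to 18124 ± 6886 and Igtp from 1063 ± 95.2 to 2624 ± 1077. Of the 4 guanylate-binding protein genes among the members only Gbp7 passed, and that narrowly. Gbp7 went from 1028 ± 132 to 1937 ± 880.2 (adjusted p = 0.0499), and leaving out any 1 library other than ketone library 3 ended the call, at adjusted p of 0.0513 to 0.132. Gbp2 was at 3899, 3985, 6549 and 4693 in PBS and at 6389.9, 10108, 3988 and 12016 in ketone, overlapping in ketone libraries 1 and 3 (log2 change 0.67 ± 0.29, adjusted p = 0.105). Without ketone library 3 Gbp2 and Gbp3 passed, at adjusted p of 0.00915 and 0.0127. Gbp3 was at 1292, 1189.8, 1409.8 and 1289.8 in PBS and at 2644, 1889, 998 and 1753 in ketone. Ketone library 3 was the only one below the PBS range of Gbp3 and the others were above it. Gbp5 was at 1284, 1164, 2220.3 and 1668 in PBS and at 1809, 2212, 1418 and 2219 in ketone, and its groups overlapped throughout (adjusted p = 0.332). Genes outside the members were mixed in both families. Gbp4 and Gbp9 rose, by 3.18 and 2.14 on the log2 scale (adjusted p = 6.94e-06 and 3.91e-05), while Gbp6 and Gbp10 did not pass. Tgtp1 and Tgtp2 rose, while the immunity-related GTPase gene Irgm2 did not pass (log2 change 0.39, adjusted p = 0.18). Igtp (58199556 to 58207591) overlaps Irgm2 (58199618 to 58222782) on the same strand of chromosome 11. It also shares 11.8% of its 50-base stretches with Irgm2. Gbp4 and Gbp9 likewise overlap on the same strand of chromosome 5. The sources do not give how reads in such overlaps were assigned, so the split within each pair is uncertain. The difference between the 2 GTPase families was not tested.

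The chemokine gene Cxcl10 (chromosome 5, 92346638 to 92348889), whose product attracts activated T cells, was at 1013, 1059, 1446 and 1325 normalized counts in PBS and at 2946, 4235, 1355 and 5475 in ketone. Its log2 change was 1.37 ± 0.33 (adjusted p = 0.00747), and ketone library 3 lay inside the PBS range. Of the 5 other interferon-induced genes 2 rose. Ifi44 (chromosome 3, 151730922 to 151749960), an antiviral protein gene, was at 18.8, 28.4, 51.3 and 26.4 in PBS and at 259.7, 244, 132 and 228 in ketone (log2 change 2.80 ± 0.36, adjusted p = 8.75e-05). Rtp4, a chaperone gene that limits interferon responses in mice, was at 484, 588, 518 and 498 in PBS and at 2044, 1549, 535 and 1379 in ketone (log2 change 1.25 ± 0.31, adjusted p = 0.0102). For Ifi44 every ketone library was higher, while for Rtp4 ketone library 3 lay within the PBS range. Ifi27 was at 3433, 3048, 3594 and 3104 in PBS and at 5404, 2851, 1743 and 2377 in ketone (log2 change -0.22 ± 0.26, adjusted p = 0.577). Ketone library 1 was above and the other ketone libraries below every PBS library, so without ketone library 1 Ifi27 fell by 0.53 on the log2 scale (adjusted p = 0.0285). Ifi35 was at 1101, 749.8, 1199 and 963 in PBS and at 1844, 1477, 834 and 1129 in ketone (adjusted p = 0.281). Xaf1 was at 327 ± 55.3 and 539 ± 349.8 (adjusted p = 0.34), and without ketone library 3 it passed at an adjusted p of 0.0328.

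The ketone libraries differed more among themselves than the PBS libraries did. The median SD of a tested member on the log2 scale was 0.19 in PBS and 0.56 in ketone, against 0.20 and 0.40 over all genes tested. Ketone library 3 was the lowest of the 4 ketone libraries in 44 of 51 tested members and in 33 of the 35 that rose. Among all 1800 genes that rose it was lowest in 44.4%, and among all genes tested in 22.7%. The median difference of the members from the PBS mean was 1.30, 1.30, 0.38 and 1.14 on the log2 scale in ketone libraries 1 to 4, while over all genes tested it lay between -0.005 and 0.018 in each. In ketone library 3, 32 of the 51 tested members were above every PBS library and 5 were below every one. These counts were not made over all genes, so they cannot be read as a trait of the members. Of the 35 members that rose 30 were above every PBS library in ketone library 3, but that library was part of the fit that chose them. The exceptions among the 35 were Oasl1, Oasl2, Gbp7, Cxcl10 and Rtp4. Nor was the count of 30 set against all genes that rose. The endothelial sum was also lowest in ketone library 3, at 38211, against 79161, 92057 and 80389 in ketone libraries 1, 2 and 4. Without ketone library 3 the number of members that rose was 39, and without ketone libraries 1 and 2 it was 32 with a median log2 change of 0.76. Of the members that rose, Rtp4, Bst2, Oasl1, Oasl2 and Gbp7 did not pass without these 2 libraries (adjusted p of 0.0518, 0.0571, 0.176, 0.219 and 0.394). The calls of 30 of the 35 members held with any 1 library left out, and those of Oasl1, Oasl2, Cmpk2, Bst2 and Gbp7 did not.

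**Figure D4:**
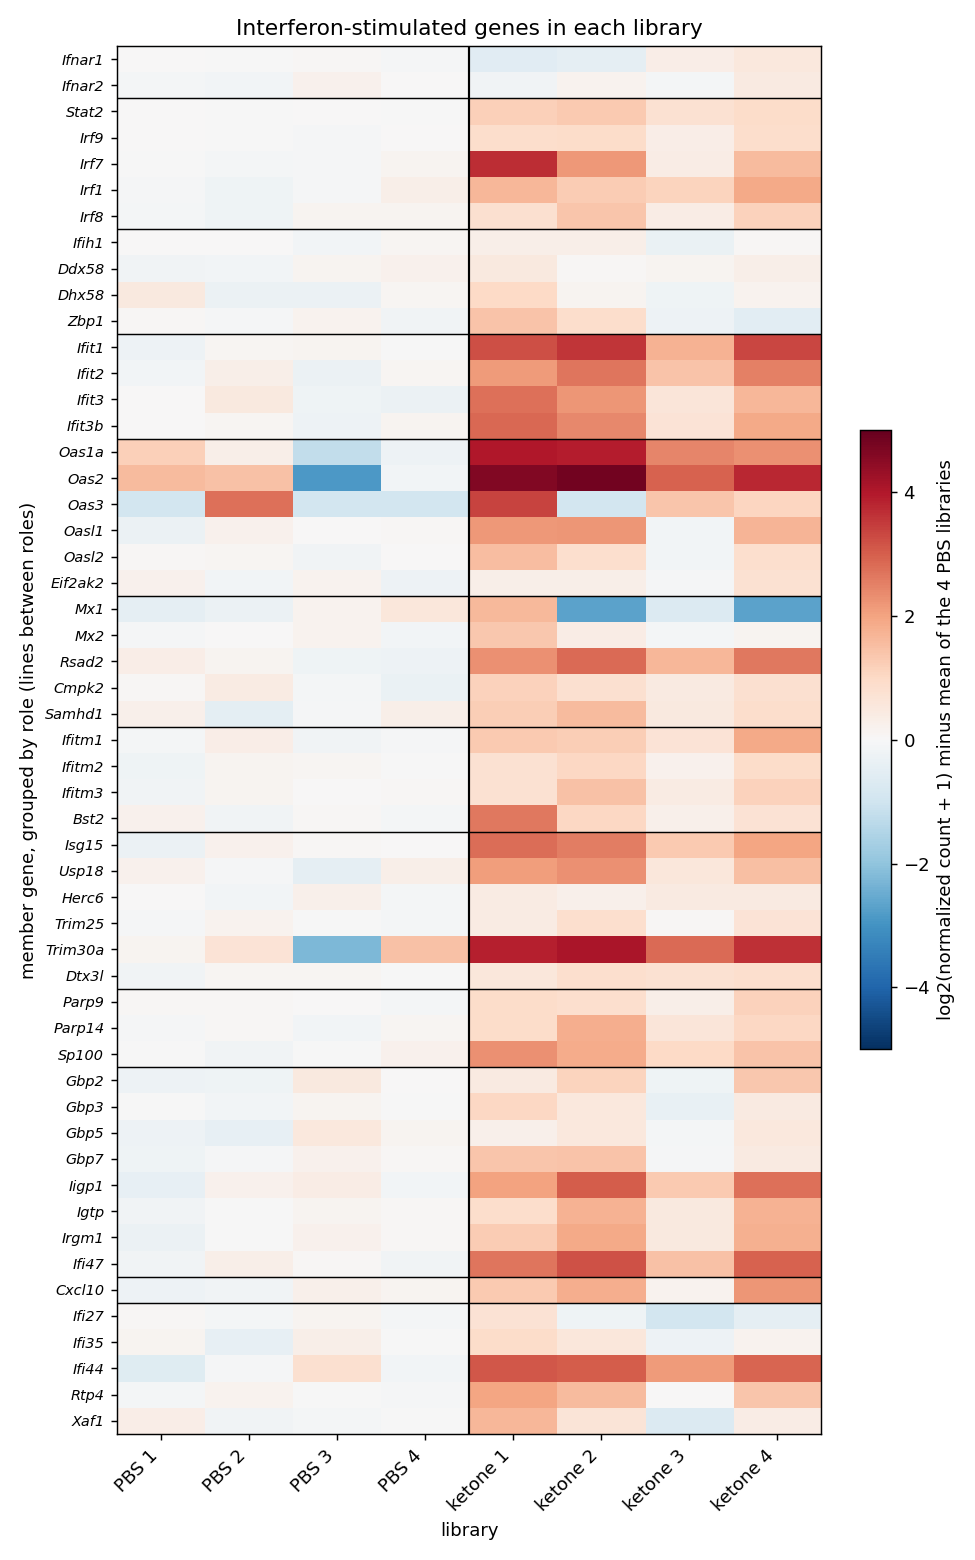
Log2(normalized count + 1) of all 53 members in each library, minus the mean of the 4 PBS libraries, with lines between roles. Red cells are above the PBS mean, and the column of ketone library 3 is paler than the other ketone columns in most rows, at a median difference of 0.38 against 1.14 to 1.30.

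Levels were compared between genes as RPKM, which is reads per kilobase of exon scaled to the reads of the library. In PBS the most abundant member was Ifitm3 at a group median RPKM of 808, followed by Ifitm2 at 290.9, Ifi27 at 83.7, Gbp2 at 64.1 and Irgm1 at 42.8. Oas2, Ifi44, Oas1a, Trim30a and Sp100 were all below 1 in PBS, at 0.1, 0.165, 0.17, 0.347 and 0.572. In ketone Oas2 and Ifi44 were still at 1.26 and 1.42. Ifit1 moved from rank 18 of 53 in PBS, at 8.5, to rank 7 in ketone, at 86.1, and Isg15 from rank 12 at 19.5 to rank 5 at 93. The most abundant members in ketone were again Ifitm3 and Ifitm2, at 1658 and 555.

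Other genes of the pathway were read from a list of 93 that holds no member. Of the 84 tested 28 rose and 2 fell, or 33.3% higher against the background of 12.8%, with a median log2 change of 0.52. Ifnb1 and Ifna4, which encode type I interferons, were at 0 in all 8 libraries, where a count of 0 has an upper limit of about 3 reads per library for counting error alone, and Ifng was at 0 in 6 of the 8 with 8.29 and 5.01 normalized counts in ketone libraries 1 and 4. The kinase genes Jak1 and Tyk2 did not pass (log2 changes -0.09 and -0.23), and of the interferon gamma receptor genes Ifngr1 rose by 0.57 ± 0.14 (adjusted p = 0.00896) and Ifngr2 did not pass (log2 change -0.18). The rises with the smallest adjusted p were those of Tgtp2, Tgtp1, Slfn2 and Gbp4. Tgtp1 and Tgtp2, immunity-related GTPases like Ifi47, went from 196 ± 38.6 to 2504 ± 966 and from 207 ± 32.2 to 2608 ± 913. They share 79.4% of the 50-base stretches of Tgtp1, so the split between them is uncertain. Slfn2, known for its role in keeping T cells quiescent in mice, went from 55.3 ± 13.1 to 594 ± 203. The guanylate-binding protein gene Gbp4 went from 56.7 ± 15.3 to 530.2 ± 191. The 2 that fell were Traf3, an adaptor in interferon induction, from 889 ± 61.3 to 506 ± 119, and Parp11, from 253 ± 27.8 to 145 ± 32.7.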

How the data were processed

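Per the labels' protocols, a low-input kit primed with oligo(dT) made the cDNA, and libraries had 13 to 15 amplification cycles, so duplicates from PCR are counted. The submitters' processing notes name DESeq2, STAR, Trim Galore, Subread and featureCounts beside build mm10, without versions or a strand setting. The authors deposited normalized signal values, in which 1 factor per library had scaled the reads of each gene. Dividing by the worth of a single read gave whole numbers within 0.001 for 100% of values in each library, and these recovered reads summed to 19174005 to 36870537 per library. Of 25239 rows 2 held a date in place of a symbol and were left out.

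Values were taken as log2(normalized count + 1), and genes with a mean of at least 10 were tested with limma 3.58.1 in R 4.3.3 (eBayes with trend, two-sided, Benjamini-Hochberg over 14022 genes, threshold 0.05). Adjusted p come from limma where no tool is given, and fold changes understate the change of low genes. The test was checked on simulated data. Alternatives were other pseudocounts (0.5 and 5), filters (none, or a mean of 50) and scalings, the recovered reads in edgeR 4.0.16 and in DESeq2 1.42.0, a replicate block, libraries left out and an endothelial covariate. Members and lists were chosen with earlier results of these data known. Values in all libraries are given for the 2 members with the smallest adjusted p in each role, both receptor genes and the 8 most abundant tested members that did not pass. They are also given for Irf7 and Bst2, which were chosen after their values were seen, as were other members named by single values. Of the other pathway genes the text names the 4 with the smallest adjusted p in each direction and 4 signalling genes, and the result of another gene that the rule names is not reported here. Libraries of a group always differed by more than sampling noise, with a chi-square of at least 12.7 for each degree of freedom. Coordinates and exon lengths are from GENCODE M21 on the same build (96.6% of symbols matched), and promoters are from RefSeq.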

Additional observations from a re-analysis of the deposited data

Results flagged for a closer look

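In 106 groups of 4 libraries (53 members in PBS and in ketone), 4 held a library whose gap to its nearest neighbour exceeded the Dixon limit as a share of the group's range, where chance gives about 1 in 20. Irf9 in ketone library 3 was at 2983 normalized counts, below 4349.5 to 4466 in the other ketone libraries. Herc6 in ketone library 2 was at 1086, below 1212 to 1236 in the others. Oas3 in PBS library 2 was at 11.6, with 0 in the other PBS libraries. Mx1 in ketone library 1 was at 18.5, above 0 to 2.99 in the others.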

How the results depend on the processing

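Under pseudocounts, filters, scalings, edgeR, DESeq2 and the replicate block, the members that rose numbered 32 to 38 and the median log2 change was 1.03 to 1.09. Over all genes 1565 to 2256 rose under these. With any 1 library left out the members that rose numbered 30 to 39, with medians of 0.84 to 1.13. Under every alternative except the endothelial covariate 29 members rose. Members lower numbered 0 to 1 with 1 library left out, and 1 without ketone libraries 1 and 2 (Ifi27 in both). With 1 library left out, other pathway genes lower numbered 1 to 3 and higher 23 to 42, and of all genes 1083 to 2123 were lower and 1271 to 1953 higher. The log2 change ranged from -0.23 to 0.14 for Ifnar1, -0.027 to 0.18 for Ifnar2, -0.0022 to 0.21 for Ifih1, -0.22 to 0.069 for Jak1 and -0.53 to 0.015 for Ifi27. With equal totals, quantile normalization, edgeR and DESeq2 Ifnar1 was at 0.021, 0.036, 0.032 and 0.040, and Dhx58 with quantile normalization at -0.006. Without ketone libraries 1 and 2, Ifnar1, Ifih1, Dhx58, Zbp1, Ifi35, Xaf1 and Ifngr2 were at 0.43, -0.15, -0.015, -0.38, -0.026, -0.15 and 0.0021, and of these Ifnar1 passed as higher (adjusted p = 0.00853). Same-numbered libraries are not paired by the labels, and their deviations from the group means correlated at 0.106, -0.011, 0.003 and -0.061. With the number as a block 36 members rose, and of the 51 calls 1 changed, Trim25 (adjusted p = 0.0471).

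With the endothelial covariate in limma, 0 members and 0 other pathway genes passed (3 of the latter higher and 8 lower at an unadjusted p below 0.05), and over all genes 0 rose and 2 fell. The medians were -0.50 for members and -0.31 for other pathway genes, and no other tool was run with it. These log2 changes had the opposite sign with the covariate. Ifnar1, Ifnar2, Irf9, Irf7, Irf8, Ifih1, Ddx58, Dhx58, Zbp1, Ifit1 and Ifit3 were at 1.13, -0.38, -0.26, -2.38, -0.51, -0.89, -0.16, -0.96, -1.66, -0.0805 and -1.06. Ifit3b, Oasl1, Oasl2, Eif2ak2, Mx2, Samhd1, Ifitm2, Ifitm3, Bst2, Isg15 and Usp18 were at -1.17, -2.54, -1.44, -0.60, -1.21, -0.55, -0.54, -0.29, -1.51, -0.11 and -0.87. Trim25, Parp9, Parp14, Sp100, Gbp2, Gbp3, Gbp5, Gbp7, Iigp1, Igtp and Irgm1 were at -0.45, -0.32, -0.0568, -0.15, -1.70, -1.72, -1.11, -1.68, -0.0817, -0.50 and -0.79. Cxcl10, Ifi35, Rtp4, Xaf1, Tyk2, Cdh5, Ptprc and Pax7 were at -1.58, -1.54, -1.74, -2.61, 0.84, -0.0841, -1.27 and 0.30. The cause was not tested. Low counts limit Oas1a, Oas2, Oas3 and Mx1.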
